A study of Mus musculus with 9 samples.

Results

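The genes that carry the signal of tumour necrosis factor (TNF) and its relatives from the cell surface to necroptosis were followed in mouse retina. The 9 genes were 4 receptors (Tnfrsf1a, Tnfrsf1b, Tnfrsf10b and Fas), the adaptors Fadd and Tradd, the kinases Ripk1 and Ripk3, and the effector Mlkl. They were chosen by gene name for their place in the pathway, with earlier results of these data known. All were found, 9 of the 21769 genes listed. Of the 9, 7 had counts high enough to be tested; Ripk3 and Mlkl did not. Polyadenylated RNA of whole retina was sequenced in 3 libraries from rd10 mice at postnatal day 61, 3 from GFP-expressing mice at day 42 and 3 from wild type mice at day 48, with 2 retinae pooled in each library. In rd10 mice Pde6b, the gene of a phosphodiesterase subunit in rods, is mutated, and the labels call their retinae degenerated and those of the other groups normal. The day 42 line is written as Gg13 in the labels and was read as the GFP group, the only group otherwise without an age. Age coincided with genotype and cannot be told apart from it, and the cells that express GFP are not given in the sources used here.

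TNF receptor 1, the product of Tnfrsf1a, carries a death domain and gathers TRADD and RIPK1, from which the cell can send a survival signal through NF-kB. When that signal fails, FADD and caspase-8 start apoptosis, and when caspase-8 is blocked, RIPK1 and RIPK3 can pass the signal to MLKL, which ruptures the cell membrane. TNF receptor 2, the product of Tnfrsf1b, has no death domain and is best known from immune cells, microglia among them. RIP kinases have been studied in the retina as mediators of necrotic photoreceptor death, including the death of cones in rd10 mice.

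Tnfrsf1a and Tnfrsf1b were the members that rose in rd10 retina, so the 250 bases upstream of each start are shown for these genes, read 5′ to 3′ on the strand of the gene from the RefSeq annotation of GRCm38.p6. The Tnfrsf1a window is chr6:125349473-125349722 on the plus strand, and the Tnfrsf1b window is chr4:145246871-145247120 on the minus strand. Capitals mark matches on either strand to TTCNNNGAA, a palindrome bound by STAT proteins, and to GGGCGG, the GC box, which reads CCGCCC on the opposite strand.
Tnfrsf1a: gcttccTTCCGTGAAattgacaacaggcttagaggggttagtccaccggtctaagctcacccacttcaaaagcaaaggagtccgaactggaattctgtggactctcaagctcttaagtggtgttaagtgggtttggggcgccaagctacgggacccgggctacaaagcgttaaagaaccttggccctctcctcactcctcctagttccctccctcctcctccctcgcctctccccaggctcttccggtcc
Tnfrsf1b: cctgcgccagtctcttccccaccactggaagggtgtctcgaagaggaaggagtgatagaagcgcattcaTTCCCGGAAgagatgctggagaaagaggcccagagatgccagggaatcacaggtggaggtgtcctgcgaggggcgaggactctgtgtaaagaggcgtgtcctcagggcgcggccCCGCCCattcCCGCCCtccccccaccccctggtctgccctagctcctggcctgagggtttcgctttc
TTCNNNGAA began 244 bases upstream of the Tnfrsf1a start and 181 bases upstream of the Tnfrsf1b start. It was present in 7.02% of 32851 mouse promoter windows of this length. It also matched in the windows of Fas and Ripk1, genes that did not pass the test. The Tnfrsf1b window held 2 GC boxes on the opposite strand, at 67 and 57 bases, a motif found in 32.7% of windows, and the Tnfrsf1a window held none. The NF-kB consensus, found in 7.25% of windows, matched in neither. GAGGAA, the core of sites for the myeloid factor PU.1, matched at 208 bases in the Tnfrsf1b window and was found in 23.3% of windows. It also matched at 212 and 124 bases in a window of Ripk1, which did not pass the test. GC boxes also matched in windows of Fas, Fadd, Ripk1 and Ripk3. Sequence windows were at hand for 7 of the 9 members, and these matches describe letters, not binding.

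Library totals ran from 9597635 to 12149448 counts. Values are CPM, counts scaled to a library of 1000000 after correction by trimmed means of log ratios (TMM), and 1 CPM stood for 8.72 to 13.6 counts. Per the series' design text the replicates were biological, and pairs of libraries of a group differed by 13.0 to 76.1 in chi-square per degree of freedom. Pde6b averaged 19.5 ± 12.3 CPM in rd10, 3215 ± 154 in GFP and 3153 ± 506 in wild type retina (SD, n = 3 each). The rods' markers summed to 393 to 833 CPM in rd10, 42808 to 47869 in GFP and 41382 to 52860 in wild type libraries, so rod transcripts defined the normal tissue and were scarce in rd10. In a principal component analysis, GFP 2 and wild type 3 lay apart from the other normal libraries on the second component, at -54.5 and -28.6. The same libraries had the steepest negative trends of expression with transcript length, with slopes of -0.32 and -0.23 log2 units per doubling of length, against -0.11 to 0.22 in the others. Transcripts of lens were high in 4 libraries, rd10 2, GFP 1, wild type 2 and wild type 3. Xist counts were 17801 in rd10 1 and 7670 in wild type 2, and at most 18 in each of the other libraries.

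In rd10 against wild type retina, 2 of the 7 tested members rose and none fell, while the other 5 did not pass. That was 28.6% of the members tested, and 28.4% of all 14300 genes tested passed (14.5% higher, 13.9% lower), so the share was near that of all genes. Against GFP retina the count was also 2 of 7, beside 30.2% of all genes (15.2% higher, 15% lower). The members called in both comparisons were the TNF receptors Tnfrsf1a and Tnfrsf1b. Genes were called by edgeR's quasi-likelihood F-test at an adjusted p under 0.05. Without the 4 libraries with lens transcripts, which leaves 1 wild type library that is assumed to vary like the other groups, 0 members passed over wild type, with log2 fold changes of 1.82 for Tnfrsf1a (edgeR adjusted p = 0.0528) and 1.32 for Tnfrsf1b (edgeR adjusted p = 0.221), and both receptors passed over GFP. The comparisons of rd10 with wild type and with GFP share the rd10 libraries and are given side by side.

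**Figure D1:**
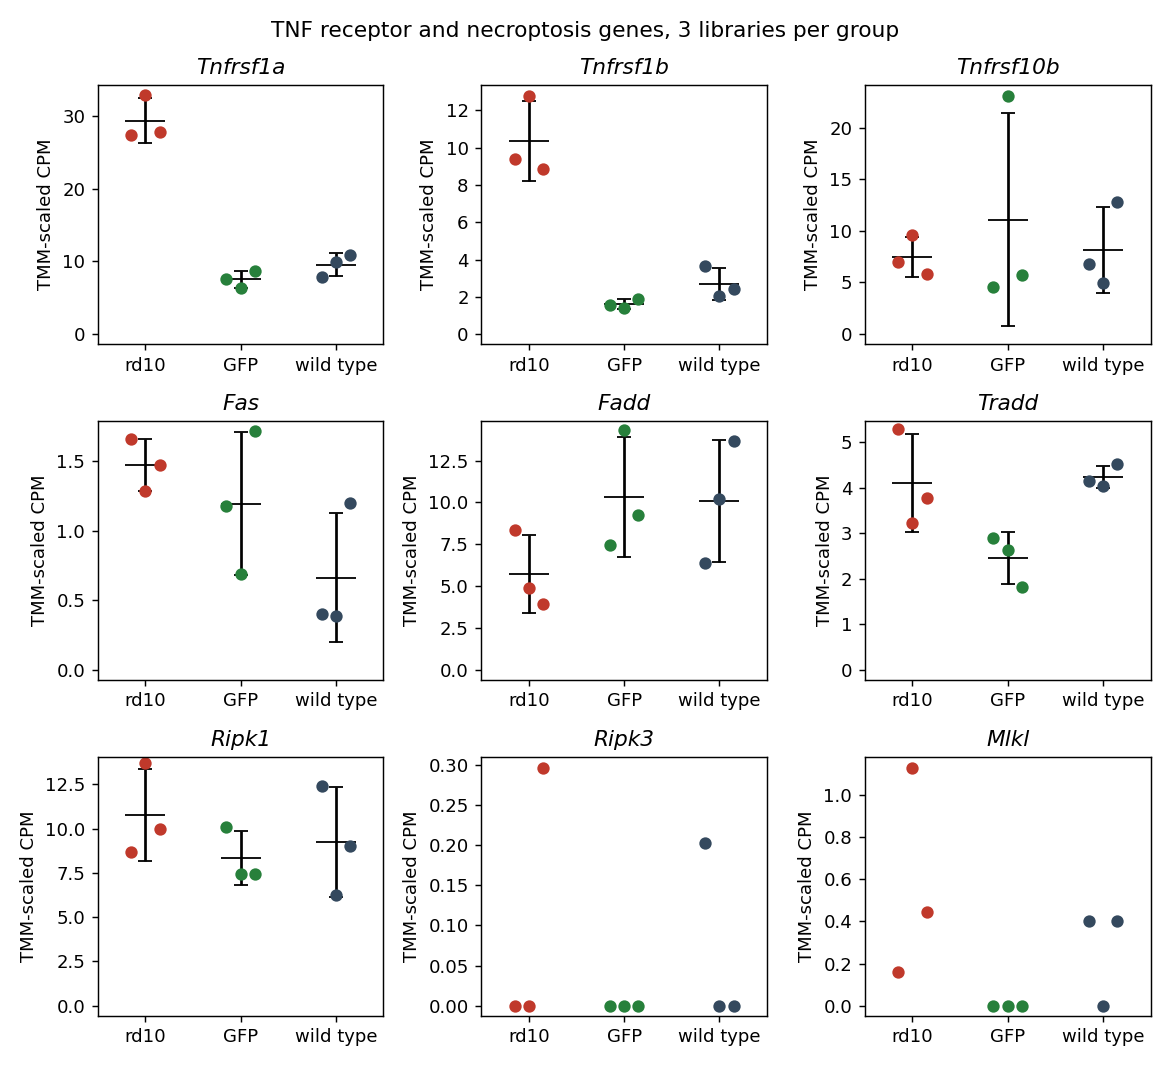
Level of each of the 9 genes in each library, in TMM-scaled CPM on a linear axis, for rd10, GFP and wild type retina. Points are libraries, and bars give the mean ± SD of 3 libraries for the 7 tested genes. The rd10 libraries lie above all normal libraries for Tnfrsf1a, from 27.3 to 32.9 CPM, and for Tnfrsf1b, from 8.85 to 12.8 CPM.

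Tnfrsf1a, which encodes the TNF receptor with a death domain (mm9, chr6:125299741-125312501, plus strand), rose in rd10 over both normal groups. It had 27.3, 32.9 and 27.8 CPM in the rd10 libraries, 7.62, 6.30 and 8.68 CPM in the GFP libraries and 7.78, 9.91 and 10.9 CPM in the wild type libraries. All rd10 libraries were above all others, and the GFP and wild type libraries overlapped. The level was 3.07-fold higher in rd10 than in wild type, a log2 fold change of 1.62 (SE 0.21, 95% interval 1.16 to 2.08, edgeR adjusted p = 0.000353). It was 3.89-fold higher in rd10 than in GFP, at a log2 fold change of 1.96 (SE 0.21, interval 1.49 to 2.43, edgeR adjusted p = 9e-05). The rise over wild type stood at percentile 98 of all genes tested, with 283 genes having a larger log2 fold change. In whole tissue, more cells of a type and more RNA per cell cannot be told apart, and the same holds for fewer cells and less RNA. Values are also relative to the rest of the library, in which rod transcripts were scarce in rd10. Inner retinal neuron markers had a median log2 fold change of 0.90 over wild type. The part of rod loss in the values of other genes was not tested.

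Tnfrsf1b, which encodes the TNF receptor without a death domain (mm9, chr4:144802271-144836773, minus strand), rose by a larger estimate. It had 9.40, 12.8 and 8.85 CPM in the rd10 libraries, 1.54, 1.38 and 1.91 CPM in the GFP libraries and 3.64, 2.02 and 2.41 CPM in the wild type libraries. No library of either normal group reached the lowest rd10 library. The fold was 3.84 over wild type, a log2 fold change of 1.94 (SE 0.32, interval 1.24 to 2.64, edgeR adjusted p = 0.00164). Over GFP it was 6.38, a log2 fold change of 2.67 (SE 0.33, interval 1.94 to 3.41, edgeR adjusted p = 0.000254). The 3 GFP libraries were all below the 3 wild type libraries, but this difference did not pass (log2 fold change -0.73, interval -1.48 to 0.02, edgeR adjusted p = 1), so the larger rise over GFP than over wild type is not shown to be a difference.

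Tnfrsf10b encodes the mouse death receptor of the ligand TRAIL (mm9, chr14:70167279-70184218, plus strand). It had 6.95, 9.58 and 5.83 CPM in the rd10 libraries, 4.53, 23.0 and 5.72 CPM in the GFP libraries and 6.77, 4.91 and 12.8 CPM in the wild type libraries. The rd10 libraries lay within the range of each normal group, and the highest values belonged to GFP 2 and wild type 3. The log2 fold change was -0.13 over wild type (interval -1.40 to 1.14, edgeR adjusted p = 0.882) and -0.56 over GFP (edgeR adjusted p = 0.475). Without GFP 2 and wild type 3 the estimates were 0.35 and 0.54, so its direction turned with those libraries. With the trend of transcript length removed from all libraries, the estimates were -0.14 over wild type and -0.57 over GFP. The cause of the high values in GFP 2 and wild type 3 was not tested.

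Fas encodes the death receptor of Fas ligand (mm9, chr19:34365149-34402260, plus strand), and its counts were low, with 4 to 21 per library. It had 1.66, 1.29 and 1.48 CPM in the rd10 libraries, 1.18, 0.688 and 1.72 CPM in the GFP libraries and 0.404, 0.385 and 1.20 CPM in the wild type libraries. The rd10 libraries were all above the wild type libraries, while rd10 and GFP overlapped. The log2 fold change over wild type was 1.14 (interval -0.13 to 2.41) and did not pass (edgeR adjusted p = 0.157), and over GFP it was 0.29 (edgeR adjusted p = 0.707). Without wild type 3 and GFP 2, a setting chosen after seeing the data, the estimate over wild type was 1.87 (edgeR adjusted p = 0.0374), which passed. Wild type 3 held 12 of the 20 wild type counts. This was the 1 alternative of 20 in which Fas passed over wild type.

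Tnfrsf1a, Tnfrsf1b and Fas were thus the members whose rd10 libraries did not overlap the wild type libraries, 3 of 7, all with rd10 higher. Of all genes tested, 50.5% did not overlap in this comparison, 26.1% with rd10 higher and 24.4% with rd10 lower. Against GFP the members without overlap were Tnfrsf1a, Tnfrsf1b and Tradd, again with rd10 higher, beside 48.2% of all genes (25.1% with rd10 higher, 23.1% with rd10 lower).

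Fadd, the adaptor between death receptors and caspase-8 (mm9, chr7:151764228-151768341, minus strand), had its lower values in rd10. It had 8.38, 4.91 and 3.91 CPM in the rd10 libraries, 7.44, 14.3 and 9.25 CPM in the GFP libraries and 6.36, 10.2 and 13.6 CPM in the wild type libraries. The library rd10 1 lay inside the range of both normal groups, and the highest values of the normal groups were again those of GFP 2 and wild type 3. The log2 fold change was -0.81 over wild type (interval -1.65 to 0.03, edgeR adjusted p = 0.131) and -0.85 over GFP (edgeR adjusted p = 0.114), and neither passed.

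Tradd, the adaptor that binds the death domain of TNF receptor 1 (mm9, chr8:107782475-107788494, minus strand), was close to equal in rd10 and wild type. It had 5.29, 3.22 and 3.76 CPM in the rd10 libraries, 2.90, 2.64 and 1.81 CPM in the GFP libraries and 4.14, 4.04 and 4.51 CPM in the wild type libraries. The wild type libraries lay within the rd10 range, and the GFP libraries lay below both. The log2 fold change was -0.05 over wild type (interval -0.75 to 0.66, edgeR adjusted p = 0.924). Over GFP it was 0.74 (interval 0.01 to 1.46) and did not pass (edgeR adjusted p = 0.11), though it passed with library totals as the scaling (1.06, edgeR adjusted p = 0.0308). Its gene lies 53 bases from Fbxl8 on mm9, without overlap.

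Ripk1, the kinase at the branch between survival and death (mm9, chr13:34094743-34127039, plus strand), had 8.69, 13.7 and 9.96 CPM in the rd10 libraries, 10.1, 7.45 and 7.44 CPM in the GFP libraries and 12.4, 6.25 and 9.03 CPM in the wild type libraries. The groups overlapped. The log2 fold change was 0.22 over wild type (interval -0.42 to 0.87, edgeR adjusted p = 0.592) and 0.37 over GFP (interval -0.28 to 1.02, edgeR adjusted p = 0.355). The first interval reaches at most a log2 change of 0.87, below the estimates for Tnfrsf1a and Tnfrsf1b.

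Ripk3, the kinase that activates MLKL (mm9, chr14:56403832-56407694, minus strand), was hardly detected. Its counts were 0, 0 and 4 in the rd10 libraries, 0 in each GFP library and 2, 0 and 0 in the wild type libraries. A total of 3 counts over a group corresponds to 0.0777 CPM in rd10, 0.0992 in GFP and 0.0991 in wild type, the upper limit that a count of 0 allows, so a difference was not detectable at this depth. The ratio of rd10 to wild type was 1.57 with an exact 95% interval of 0.225 to 17.3, which covers counting error only.

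Mlkl, the effector that breaks the membrane (mm9, chr8:113835700-113861803, minus strand), had 2, 14 and 6 counts in the rd10 libraries, 0 in each GFP library and 4, 0 and 4 in the wild type libraries. Every rd10 library had counts, 14 of the 22 in rd10 2 alone, and wild type overlapped them. The ratio of rd10 to wild type was 2.15 with an exact interval of 0.924 to 5.60, from counting error alone. Against GFP, the estimate was 5.74-fold higher in rd10 when GFP is set to the floor of 3 counts over the group. That value leaves out the error of the rd10 counts, and the rd10 libraries ran from 0.158 to 1.13 CPM. The gene was too low for the test as filtered. With no filter, edgeR's adjusted p was 0.544 for rd10 against wild type and 0.0503 for rd10 against GFP, and DESeq2's Wald test gave 0.614 and 0.0252.

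**Figure D2:**
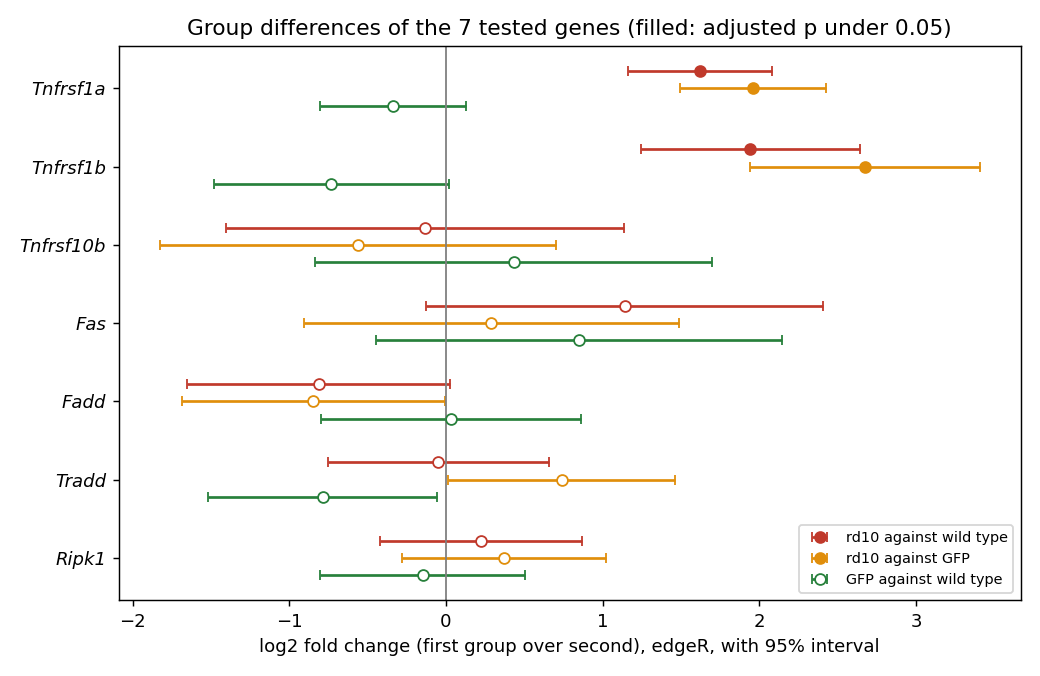
Log2 fold change of the 7 tested genes in each comparison, the named group over its comparator, from edgeR. Points are estimates and bars the 95% intervals, and filled points passed at an adjusted p under 0.05; only Tnfrsf1a and Tnfrsf1b have filled points, at 1.62 and 1.94 over wild type and at 1.96 and 2.67 over GFP.

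No tested member was called in GFP against wild type retina, 0 of 7 beside 0 of 14300 genes (0%) by edgeR at an adjusted p under 0.05. At an unadjusted p under 0.05 there were 214 genes (1.5%) and 1 member, and DESeq2 called 1 gene, which was no member. The member was Tradd, at a log2 fold change of -0.79 (interval -1.52 to -0.06, edgeR adjusted p = 1). Tradd and Tnfrsf1b were the 2 members whose GFP libraries did not overlap the wild type libraries, both lower in GFP, beside 3.99% of all genes (1.52% higher, 2.46% lower). The estimates for Tnfrsf1a, Fas, Fadd and Ripk1 were -0.34, 0.85, 0.03 and -0.15, with intervals that include 0.

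Per kilobase of the longest annotated transcript, Tnfrsf1a was the highest member in each group by its mean, with 13.6 ± 1.43 CPM per kb in rd10, 3.49 ± 0.551 in GFP and 4.42 ± 0.747 in wild type (SD, n = 3 each). In GFP its lead over Tnfrsf10b, at 3.49 ± 3.26, was within the spread. In rd10 retina Tnfrsf1b came next at 2.71 ± 0.559, followed by Tradd at 2.42 ± 0.637 and Tnfrsf10b at 2.34 ± 0.605, which did not differ beyond their spread. Ripk1 at 1.67 ± 0.401, Fadd at 1.47 ± 0.600 and Fas at 0.995 ± 0.125 were lower. In wild type retina Fadd, Tnfrsf10b and Tradd lay together at 2.58 ± 0.933, 2.57 ± 1.30 and 2.51 ± 0.147, Ripk1 at 1.43 ± 0.477 and Tnfrsf1b at 0.704 ± 0.221. Fas would stand at 2.77 in rd10 and 1.25 in wild type with its shortest transcript, so its place depends on the isoform. Mlkl at 0.287 and Ripk3 at 0.0501 were the lowest members in rd10.

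Among pairs of tested members, the profiles of the 2 TNF receptors were the most alike. Both were called higher in rd10, which by itself brings their profiles together, and each had other genes closer to it, given below. Likeness was measured as the root-mean-square difference of gene-centred log2 CPM over the 9 libraries, and Tnfrsf1a and Tnfrsf1b differed by 0.394. The next most alike pairs of members were Ripk1 and Tradd at 0.484, Tnfrsf10b and Fadd at 0.641 and Fas and Ripk1 at 0.677. Tnfrsf1a differed by 0.757 from Fas, by 0.790 from Ripk1, by 0.794 from Tradd and by 1.31 from Fadd. Among 11712 genes of at least 5 CPM, those most like Tnfrsf1a were Zic1, a zinc finger transcription factor, at 0.160, and the extracellular matrix genes Efemp1 and Fbln5 at 0.183 and 0.215. Efemp1 rose 2.54-fold to 244 CPM in rd10, against 96.1 CPM in wild type (edgeR adjusted p = 0.00077). Those most like Tnfrsf1b, among 11713 genes, were Tmem132b at 0.295, Mpeg1, a pore-forming protein of macrophages, at 0.306 and Col17a1, a collagen of epithelial adhesion, at 0.340. Mpeg1 rose 3.57-fold to 15.2 CPM in rd10, against 4.24 CPM in wild type (edgeR adjusted p = 0.000736).

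On mm9, Plekhg6 lies 167 bases from Tnfrsf1a on the opposite strand and also rose, to 6.60 CPM in rd10, against 1.39 CPM in wild type (log2 fold change 2.24, edgeR adjusted p = 0.00167). The strand setting of the counts is not given in the sources used here, so reads beyond the end of either gene cannot be told apart. No member overlaps another gene of the files. Near Tnfrsf1b, Tnfrsf8, which encodes CD30 of the same receptor family and lies 22105 bases away, fell to 0.746 CPM in rd10, against 5.47 CPM in wild type (log2 fold change -2.85, edgeR adjusted p = 0.00646). Vps13d on its other side did not pass (0.22, edgeR adjusted p = 0.766).

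Markers of microglia and macrophages moved with both TNF receptors. Of the 15 markers, 10 rose in rd10 over wild type, beside 14.5% of all genes tested, and none fell. Their median log2 fold change was 1.54, against -0.03 over all genes. Their sum was 275 to 317 CPM in rd10, 86.7 to 136 in GFP and 102 to 122 in wild type libraries. Müller glia markers rose in 8 of 9, with sums of 8960 to 9590 CPM in rd10, 5088 to 6107 in GFP and 4240 to 5745 in wild type, and astrocyte markers in 4 of 5, with sums of 193 to 273, 54.2 to 73.5 and 54.5 to 73.1 CPM. The astrocyte sum in rd10 was mostly Gfap, which averaged 142 CPM in rd10, 17.4 in GFP and 15.3 in wild type. Which cells carried Gfap cannot be told from whole retina, so this sum does not measure astrocytes alone. Of the 8 endothelial markers only Kdr rose, with 607 CPM in rd10, 179 in GFP and 163 in wild type. The median of the list was a log2 fold change of 0.21 over wild type and -0.18 over GFP. None of the 6 markers of pericytes and smooth muscle was called. Inner retinal neuron markers rose in 10 of 12, with sums of 2285 to 2449 CPM in rd10, 1509 to 1676 in GFP and 1402 to 1742 in wild type. Of 7 tested markers of pigment epithelium, 2 rose over wild type, Dct by 2.17-fold (edgeR adjusted p = 0.0132) and Tyrp1 by 2.08-fold (edgeR adjusted p = 0.0287), and the list summed to 351 to 458 CPM in rd10, 204 to 320 in GFP and 121 to 396 in wild type. T cell markers summed to 2.61 to 3.70 CPM in rd10, 0.998 to 3.09 in GFP and 1.31 to 2.12 in wild type, with Cd2 at 0, and granulocyte markers to at most 0.869 CPM with Elane at 0.

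Set against the summed microglial markers, Tnfrsf1a amounted to 9.65%, 10.4% and 10.1% in the rd10 libraries, 8.79%, 4.65% and 8.85% in the GFP libraries and 7.63%, 8.11% and 8.93% in the wild type libraries. The rd10 ratios were the highest, GFP 2 was the lowest, and the other normal libraries lay between 7.63% and 8.93%. Set against the Müller glia sum, Tnfrsf1a amounted to 0.285%, 0.367% and 0.294% in rd10, 0.141%, 0.124% and 0.142% in GFP and 0.162%, 0.173% and 0.258% in wild type, so it was higher in rd10 relative to these markers too. Tnfrsf1b against the microglial sum amounted to 3.32%, 4.04% and 3.22% in rd10, 1.78%, 1.01% and 1.95% in GFP and 3.57%, 1.65% and 1.97% in wild type, where rd10 and wild type overlapped. The part of any cell type's share in the rise of either receptor was not tested.

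**Figure D3:**
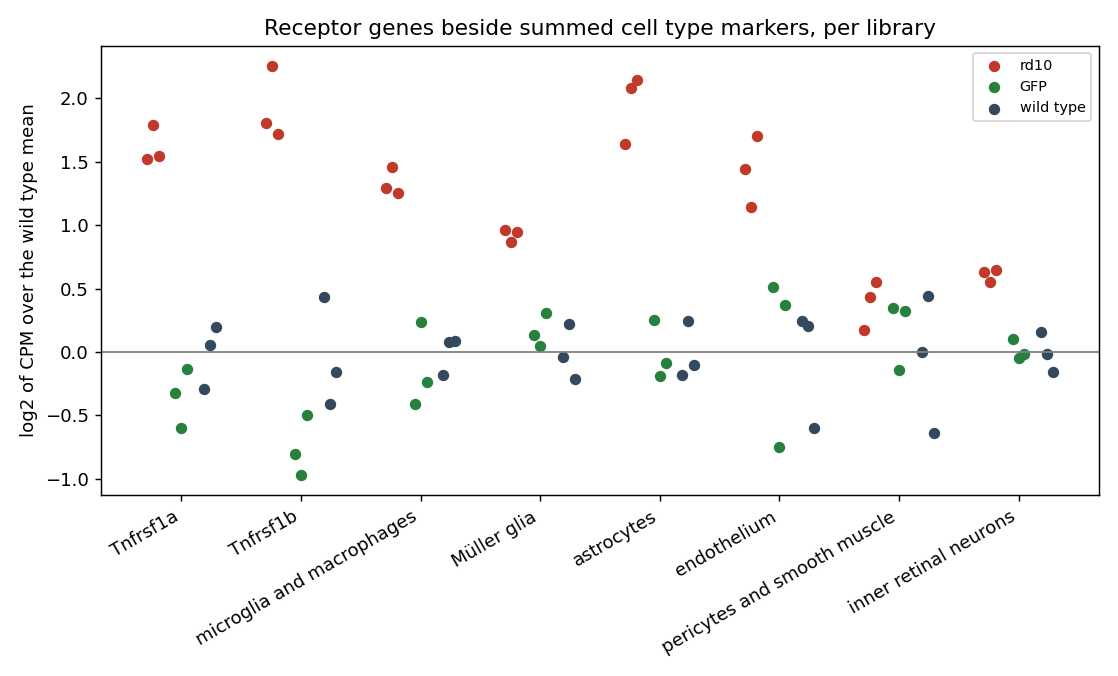
Tnfrsf1a and Tnfrsf1b beside the summed markers of 6 cell types, each library as the log2 of its CPM over the wild type mean, for rd10, GFP and wild type. Points are libraries and the line marks the wild type mean. The rd10 libraries stand above the normal libraries for both receptors and for the sums of microglia, Müller glia, astrocytes, endothelium and inner retinal neurons, and overlap them for pericytes and smooth muscle. The endothelial sum is mostly Kdr, at 607 CPM in rd10, and the other 7 endothelial markers did not pass. The astrocyte sum in rd10 is mostly Gfap, at 142 CPM, and the cells that carried Gfap cannot be told from whole retina.

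The rest of the pathway was read from 8 lists holding 101 other genes, of which 80 were tested. In rd10 against wild type, 13 of the 80 rose, 10 fell and 57 did not pass, with a median log2 fold change of 0.03. That is 28.7% called, beside 28.4% of all genes (14.5% higher, 13.9% lower). Against GFP 14 rose and 12 fell, 32.5% beside 30.2%. None was called in GFP against wild type. With library totals as the scaling, the split was 22 higher and 6 lower over wild type and 29 higher and 6 lower over GFP, and with upper quartile scaling it was 20 higher and 7 lower over GFP. None of the 23 genes called over wild type changed sign under another scaling. Tnfsf13, Birc2, Ppm1b and Pgam5 no longer passed with library totals, which kept 19 of the 23. Without the 4 libraries with lens transcripts no sign turned either, and 6 of the 23 passed: Tnfaip3, Xiap, Tab3, Rhbdf2, Timp3 and Vcam1.

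Among the ligands, 6 of 14 were tested, and 2 fell over wild type while none rose. Tnf itself had 0, 1 and 2 counts in the rd10 libraries and 0 in every GFP and wild type library, so its level was at or below the floor in all groups. Fasl, which encodes Fas ligand, had 8 counts in rd10, 1 in GFP and 2 in wild type, and Lta, which encodes lymphotoxin alpha, the other ligand of both TNF receptors, had 13, 4 and 12. Tnfsf10, the gene of TRAIL, averaged 3.82 ± 1.40 CPM in rd10, 4.75 ± 5.42 in GFP and 2.44 ± 0.635 in wild type, and did not pass (log2 fold change 0.64 over wild type, edgeR adjusted p = 0.504). Tnfsf12, the gene of the ligand TWEAK, averaged 11.3 ± 2.48 CPM in rd10, 73.7 ± 43.8 in GFP and 59.7 ± 20.3 in wild type, 5.29-fold lower in rd10 than in wild type (edgeR adjusted p = 0.00177). Tnfsf13, the gene of APRIL, was 2.05-fold lower, at 3.41 CPM in rd10 against 7.01 CPM in wild type retina (edgeR adjusted p = 0.0243), but did not pass against GFP (edgeR adjusted p = 0.128). Over GFP, Tnfsf12 was the 1 ligand called.

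Of 21 other receptors listed for the family, 14 were tested, 3 rose over wild type and none fell. The list left out Tnfrsf8, the neighbour of Tnfrsf1b given above, which fell (log2 fold change -2.85, edgeR adjusted p = 0.00646). Ltbr, the lymphotoxin beta receptor, which lies 35852 bases from Tnfrsf1a, averaged 20.4 CPM in rd10 against 8.48 CPM in wild type retina, 2.40-fold higher (edgeR adjusted p = 0.00262). Tnfrsf21, which encodes death receptor 6, averaged 49.3 CPM in rd10 against 21.4 CPM in wild type retina, 2.30-fold higher (edgeR adjusted p = 0.00047). Ngfr, the neurotrophin receptor of the family, averaged 68.3 CPM in rd10 against 47.0 CPM in wild type retina, 1.45-fold higher (edgeR adjusted p = 0.0292). All 3 also rose over GFP, where 5 of the 14 rose and none fell. The estimates for Tnfrsf1a and Tnfrsf1b were larger than those of these 3 genes, which was not tested.

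In the receptor complex, which decides between survival and death downstream of RIPK1, 4 of 25 tested genes fell over wild type and none rose. That was 16% of the list, near the 13.9% of all genes tested that fell. With library totals as the scaling 3 fell and 2 rose. Tnfaip3, which encodes A20, an inhibitor of NF-kB and of cell death at the receptor, averaged 28.6 ± 3.17 CPM in rd10, 346 ± 76.2 in GFP and 303 ± 85.9 in wild type. It was 10.6-fold lower in rd10 than in wild type (log2 fold change -3.41, SE 0.26, edgeR adjusted p = 6.43e-06). Xiap, an inhibitor of caspases, averaged 155 CPM in rd10 against 423 CPM in wild type retina, 2.72-fold lower (edgeR adjusted p = 0.000924). Tab3, an adaptor of the kinase TAK1, was 2.21-fold lower (edgeR adjusted p = 0.000662) and Birc2, which encodes the ubiquitin ligase cIAP1 that acts on RIPK1, was 1.59-fold lower (edgeR adjusted p = 0.0106). The rod sums given above moved in the same direction as these 4 genes, and their part in these values was not tested.

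None of the 5 genes of the caspase-8 branch passed over wild type, while 3 rose with library totals as the scaling. Cflar, which encodes the caspase-8 inhibitor FLIP, averaged 44.0 ± 2.68 CPM in rd10 against 35.6 ± 2.66 CPM in wild type retina (log2 fold change 0.31, edgeR adjusted p = 0.228). Casp8 averaged 3.58 ± 1.24 CPM in rd10 against 1.65 ± 0.403 CPM in wild type retina, and its libraries did not overlap (log2 fold change 1.11, edgeR adjusted p = 0.0902). Over GFP, 1 of the 5 rose, Bid, which carries the caspase-8 signal to mitochondria, with 5.90 ± 0.805 CPM in rd10 and 3.10 ± 0.661 CPM in GFP (1.90-fold higher, edgeR adjusted p = 0.0321). Casp8 and Bid were named after their values were seen.

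Of 10 regulators of necroptosis, 3 rose and 3 fell over wild type, while 3 rose and 1 fell with upper quartile scaling and 4 rose and 1 fell with library totals. Those that rose carry other triggers into the pathway. Tlr3, a receptor for double-stranded RNA, averaged 10.1 CPM in rd10 against 4.68 CPM in wild type retina, 2.15-fold higher (edgeR adjusted p = 0.00789). Zbp1, a nucleic acid sensor that binds RIPK3, averaged 1.16 CPM in rd10 against 0.232 CPM in wild type retina, 4.82-fold higher (edgeR adjusted p = 0.0232), and did not pass over GFP (edgeR adjusted p = 0.0589). Its counts were few, 45 over the rd10 libraries, 11 over GFP and 7 over wild type. Tlr4, the receptor for endotoxin, averaged 2.10 CPM in rd10 against 0.199 CPM in wild type retina, at a log2 fold change of 3.33 from few counts (edgeR adjusted p = 0.0271). Hsp90aa1, a chaperone of RIP kinases among many proteins, averaged 1450 CPM in rd10 against 3354 CPM in wild type retina, 2.31-fold lower (edgeR adjusted p = 0.00553), and Ppm1b and Pgam5 also fell.

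Of 5 genes that act on the shedding of TNF and its receptors, Timp3, an inhibitor of the sheddase ADAM17, averaged 261 CPM in rd10 against 112 CPM in wild type retina, 2.33-fold higher (edgeR adjusted p = 0.000331). Timp3 overlaps Syn3 on the opposite strand, and reads of the pair cannot be told apart without strand. Rhbdf2, which brings ADAM17 to the cell surface, averaged 5.19 CPM in rd10 against 16.7 CPM in wild type retina, 3.21-fold lower (edgeR adjusted p = 0.000411).

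Among the 9 NF-kB subunits and inhibitors, 2 rose over wild type. Nfkb1 averaged 43.3 CPM in rd10 against 24.2 CPM in wild type retina, 1.79-fold higher (edgeR adjusted p = 0.0127), and did not pass over GFP (edgeR adjusted p = 0.0511). Bcl3, a nuclear co-regulator, averaged 2.63 CPM in rd10 against 0.556 CPM in wild type retina, 4.64-fold higher (edgeR adjusted p = 0.027). This fold rests on few counts, 102 over the rd10 libraries, 13 over GFP and 17 over wild type. Over GFP, Bcl3 rose and Nfkbia, which encodes an inhibitor of NF-kB, fell to 29.9 ± 3.67 CPM in rd10, against 57.7 ± 26.1 CPM in GFP (log2 fold change -0.95, edgeR adjusted p = 0.0309). Of 11 genes listed as NF-kB targets, 6 were tested and 4 rose over wild type, with a median log2 fold change of 1.40. Sod2 was close to equal in rd10 and wild type, at 150 and 152 CPM (log2 fold change -0.02, edgeR adjusted p = 0.94). Ptgs2 did not pass either (1.09, edgeR adjusted p = 0.366). Tnfaip3 and Nfkbia stand in other lists, with log2 fold changes over wild type of -3.41 and -0.64 (edgeR adjusted p = 6.43e-06 and 0.115). The median thus depends on which genes were listed as targets. Icam1, an adhesion molecule for leukocytes, averaged 8.16 ± 2.24 CPM in rd10, 1.44 ± 0.736 in GFP and 0.952 ± 0.373 in wild type, 8.45-fold higher in rd10 than in wild type (edgeR adjusted p = 0.000881). Vcam1, another such adhesion molecule, averaged 55.0 ± 6.05 CPM in rd10, 15.7 ± 3.09 in GFP and 14.7 ± 2.39 in wild type, 3.74-fold higher (edgeR adjusted p = 9.62e-05). Lcn2, a secreted iron carrier, was 2.99-fold higher (edgeR adjusted p = 0.0155) and Irf1, an interferon response factor, 2.34-fold higher (edgeR adjusted p = 0.0342). The same 4 genes passed over GFP, and the glial marker sums above moved in the same direction.

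**Figure D4:**
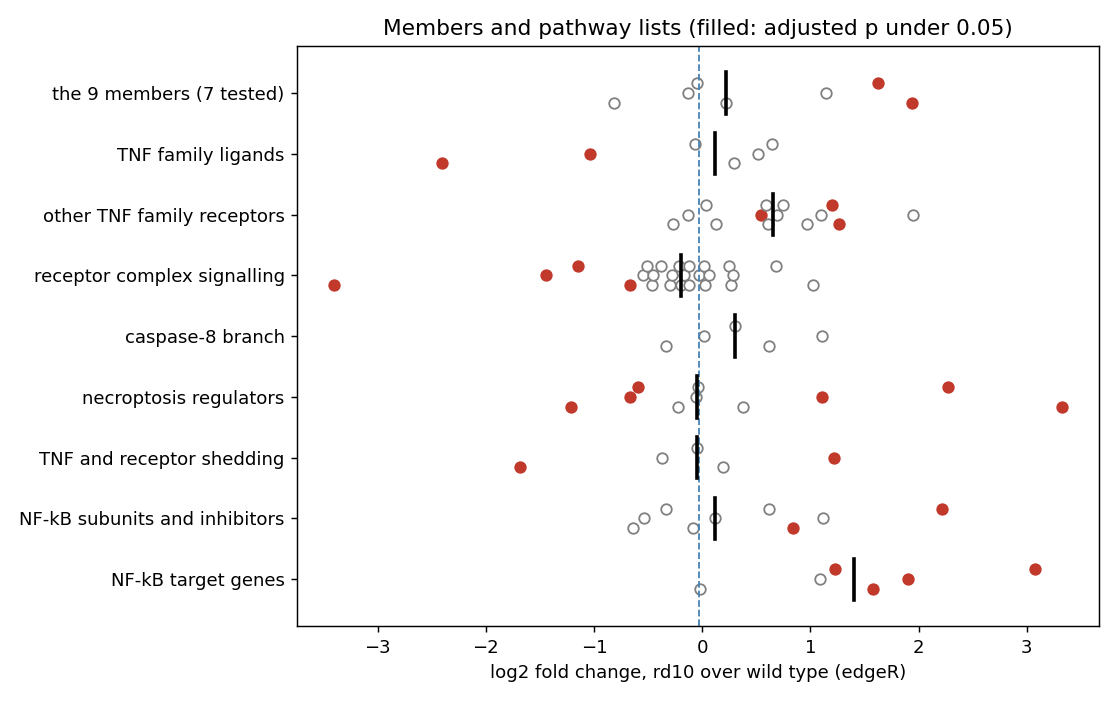
Log2 fold change of rd10 over wild type for the tested members and for the tested genes of the 8 pathway lists, from edgeR. Points are genes, filled where the adjusted p was under 0.05, black lines are the medians of each row, and the dashed line is the median of all genes tested, at -0.03. The median of the members is 0.22, and the listed NF-kB target genes, of which 6 were tested, have the highest median, 1.40.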

How the data were processed

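The deposited files gave 1 count per gene and library. The authors' numbers were taken as unnormalised counts: all were whole, and their totals differed between libraries. Counting was on mm9, per the submitters' processing notes, while no aligner, counter, annotation or strand setting is given in the sources used here. The filter filterByExpr (minimum count 10, minimum total 15) of edgeR 4.0.16, run in R 4.3.3, left 14300 of 21769 genes. All 9 libraries entered a single edgeR fit with TMM scaling and the group as its only factor, and groups were compared by the quasi-likelihood F-test with Benjamini-Hochberg adjustment over all genes tested. DESeq2 1.42.0 was an alternative. The scripts were tested on simulated data. Members, gene lists and tests were chosen with earlier results of these data known. All members were named, with up to 4 genes per pathway list by smallest adjusted p in rd10 against wild type, or the most abundant where none passed, and the 3 genes most like each called member. Tnf, Lta, Fasl, Tnfsf10, Casp8, Bid, Nfkbia, Ppm1b, Pgam5, Sod2, Ptgs2 and the neighbouring genes were added outside that rule. Transcript lengths came from GENCODE M21 (97.2% of genes matched). Positions of genes are those of the files on mm9, 1-based, and sequence windows are on GRCm38.p6. Same-numbered libraries of different groups were checked for pairing (4 of 9 pairs with a correlation of deviations over 0.1, range -0.372 to 0.357), and the numbers did not pair them.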

Additional observations from a re-analysis of the deposited data

How the results depend on the processing

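Each result was recomputed under 20 alternatives, 9 of which left out 1 library. The setting without wild type 3 and GFP 2 was chosen after seeing the data. Against GFP, Tnfrsf1a and Tnfrsf1b passed in all 20. Against wild type each passed in 19, with log2 fold changes of 1.52 to 1.91 and 1.79 to 2.25 in those 19; the exception, chosen after seeing the data, left out the 4 libraries with lens transcripts and so kept 1 wild type library, which is assumed to vary like the other groups. There they were 1.82 (edgeR adjusted p = 0.0528) and 1.32 (0.221), and 0 members, 6 pathway genes and 543 genes in all were called. Against GFP it left 14 pathway genes and 1846 genes. Leaving out 1 library gave 14 to 28 pathway genes and 2455 to 5421 genes over wild type, 16 to 26 and 2602 to 4404 over GFP, and 0 to 4 genes for GFP against wild type, where DESeq2 called 1. The pathway count over wild type fell to 14 without rd10 2 and to 15 without rd10 3, and that over GFP to 16 without rd10 2. Without rd10 1, rd10 2 or rd10 3, 2455, 2603 and 2540 genes were called over wild type and 2602, 2783 and 2707 over GFP. With replicate number as a block, which does not pair these libraries, Tnfrsf1a was 1.63 over wild type (edgeR adjusted p = 0.00128) and Tnfrsf1b 1.96 (0.00586), 2 members, 21 pathway genes and 3606 genes were called over wild type, and 2, 21 and 3908 over GFP; it changed no call of a member. Library totals moved the median of all genes by 0.286 over wild type and 0.327 over GFP (log2), with 3604 genes higher and 1077 lower over wild type and 4041 and 1055 over GFP, and upper quartile scaling gave 2745 and 1644 over GFP. Signs turned for members that did not pass. Leaving out 1 library, Tnfrsf10b ran from -0.38 to 0.35 and Tradd from -0.26 to 0.12 over wild type, Tnfrsf10b from -0.92 (without GFP 1) to 0.54 (without GFP 2) over GFP, and in GFP against wild type Tnfrsf10b from -0.65 to 0.92, Fadd from -0.25 to 0.31 and Ripk1 from -0.36 to 0.14. Over wild type, Tnfrsf10b was 0.14 with library totals and 0.35 without wild type 3 and GFP 2, Tradd was 0.030 with upper quartile scaling, 0.24 with library totals, 0.13 with the length trend removed and 0.12 without the lens libraries, and Ripk1 was -0.42 without the lens libraries. Without wild type 3 and GFP 2, Tnfrsf10b was 0.54 over GFP and -0.19 in GFP against wild type, where Fadd was -0.017 with library totals. The causes were not tested. Depth limits what can be seen for Ripk3, Mlkl, Fas and Tnf.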
